A study of Mus musculus with 12 samples.

Results

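The genes described here are 6 whose messages are strongest in atrial muscle, read in tissue of the ventricle: Myl4, Myl7, Sln, Kcnj3, Nppa and Bmp10. They were taken by name from the deposited count tables, in which each of them had 1 row among 21669 transcript names. Except for Bmp10, they were selected on RNA differences between genotypes in these same libraries, with earlier results of these data known. For these 6 genes the RNA difference between genotypes is thus a description and carries no test. Bmp10 had 0, 2 and 1 RNA counts in WT and 0, 3 and 4 in KO, too few to be selected on. Which values chose Bmp10 is not given, so its footprint difference is not taken as free of the choice. Footprint levels come from other libraries and were tested over all genes. The labels do not say whether both assays used the same hearts, so the footprint tests may not be free of this choice. Left ventricular tissue of adult mouse hearts was used in every group. One genotype was wild type (WT) and the other lacked Rpl3l (Rpl3l-/-, here KO), a form of the ribosomal protein Rpl3 found in striated muscle. Strain, sex, exact age and the kind of deletion were not given in the sources used here. Per genotype, 3 libraries of ribosome footprints (RPF, the RNA fragments that a ribosome shields from RNase) and 3 of polyadenylated RNA were made, 12 libraries in all, and the series describes them as biological triplicates.

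Atrial and ventricular heart muscle cells run the same contraction with partly different proteins. Each chamber has its own myosin light chains, atrial cells hold the calcium pump back with sarcolipin as well as phospholamban, and atrial cells make most of the natriuretic peptide that the heart releases. In the fetal ventricle several of these genes are active, and they become quiet there after birth, although Nppa can return in a stressed ventricle. Bmp10, a growth factor of the BMP family that the adult heart makes mainly in the right atrium, signals to endothelial cells. In ventricular tissue, a low level of such messages can come from ventricular cells or from a little atrial tissue at the edge of the dissection. In bulk samples, fewer cells of a type and less RNA per cell cannot be told apart.

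The DNA just before the transcription start is shown for the 4 genes whose counted transcript starts where the RefSeq table for GRCm38.p6 places the gene, since several of these genes were highest in the same libraries. Each line holds 150 bases that end at the base before the start, 5′ to 3′ on the gene's own strand. Capitals mark matches to short motifs, searched on both strands. The promoter core element that is named for its letters was read as TATAAA. The site of the GATA factor family was read as TGATAA, also with A in place of the first letter, G in place of the last, or both. The motif of the T-box factors was read as AGGTGT, and the CArG box of serum response factor and the MEF2 site were searched by their usual consensus. Myl7 lies on the minus strand at chr11:5898783-5898932, Bmp10 on the plus strand at chr6:87428844-87428993, Kcnj3 on the plus strand at chr2:55435820-55435969 and Nppa on the plus strand at chr4:148000572-148000721.
Myl7: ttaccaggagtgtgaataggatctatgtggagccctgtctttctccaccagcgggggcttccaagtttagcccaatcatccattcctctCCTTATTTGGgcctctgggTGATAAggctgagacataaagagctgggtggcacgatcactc
Bmp10: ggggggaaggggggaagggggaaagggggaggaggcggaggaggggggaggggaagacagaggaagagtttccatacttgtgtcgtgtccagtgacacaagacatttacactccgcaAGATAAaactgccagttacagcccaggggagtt
Kcnj3: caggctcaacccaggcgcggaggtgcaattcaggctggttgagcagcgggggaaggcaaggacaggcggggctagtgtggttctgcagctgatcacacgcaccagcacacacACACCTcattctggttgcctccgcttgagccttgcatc
Nppa: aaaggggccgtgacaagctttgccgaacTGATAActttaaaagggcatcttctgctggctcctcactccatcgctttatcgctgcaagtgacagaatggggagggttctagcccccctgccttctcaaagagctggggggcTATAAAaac
The Myl7 stretch has a CArG box, matched on both strands, 61 to 52 bases before the start and a GATA match 42 to 37 bases before it. Bmp10 has a GATA match 33 to 28 bases before the start. Nppa has one 122 to 117 bases before it and the core element at 9 to 4 bases. The capitals in Kcnj3 are the T-box motif read on the minus strand. Among 32851 RefSeq promoters cut to the same 150 bases, 16.0% hold a GATA match, 7.57% the core element, 6.86% a T-box match, 0.916% a CArG box and 0.332% a MEF2 site. No MEF2 match stood in these 4 windows. A match is a description of the letters and says nothing of binding. The RefSeq start of Myl4 lies 26322 bases from the start of the transcript counted here, so its promoter is not shown.

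Sln is shown by its coding sequence, because its shortness bears on how few footprints it can carry. The frame spans 96 bases of GRCm38 at chr9:53853473-53853568 on the plus strand, in 1 exon of the transcript at chr9:53850164-53854560. Capitals mark the start and stop codons, and 31 codons precede the stop.
Sln: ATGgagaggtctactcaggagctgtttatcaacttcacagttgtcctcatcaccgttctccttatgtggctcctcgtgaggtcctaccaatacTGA

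Rpl3l, the deleted gene, had 2726 to 3329 RNA counts in the WT libraries and 276 to 442 in the KO libraries. Its footprint counts were 937 to 1108 in WT and 30 to 65 in KO, so all 12 labels fitted the gene they name. RNA libraries held 6635242 to 8459004 counts, of which mitochondrial messages took 49.8% to 58.2%, and footprint libraries held 3827862 to 7474602 counts with 2.28% to 5.22% mitochondrial. Levels are given as CPM, counts scaled to a common library size, after TMM scaling. The limit below which a gene is called not detected, 3 counts, corresponds to 0.355 to 0.452 CPM in RNA and 0.401 to 0.784 CPM in footprints. The RNA libraries split on their first principal component, computed without the 6 genes and holding 54.1% of the variance. WT 3, KO 1 and KO 3 lay on one side (14.3 to 19.6) and WT 1, WT 2 and KO 2 on the other (-18.5 to -14.7), a split that crosses the genotypes. Among footprints, the first component (34.7%) set WT 1 apart at -45.1 from the other 5 libraries at 4.21 to 11.8. Ventricular markers (Myl2, Myl3, Irx4, Hey2, Actn2, Ttn and Tnnt2) summed to 29062 to 38803 CPM in RNA and 38990 to 44024 CPM in footprints, which fits the labelled tissue.

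Both atrial myosin light chains had higher RNA and footprint means in KO, with WT and KO libraries overlapping. KO 2 was the highest library except in Myl4 footprints, where WT 2 was. Myl7, the regulatory light chain of atrial myosin (chr11:5896637-5898782, minus strand, 7 exons), had RNA levels of 870, 962 and 516 CPM in WT 1 to 3 and 721, 1541 and 942 CPM in KO 1 to 3. The mean was 783 ± 235 CPM (SD, n = 3) in WT and 1068 ± 424 CPM (SD, n = 3) in KO. KO 2 was the highest and WT 3 the lowest, and the groups overlapped. The log2 difference in RNA was 0.45 (SE 0.31), and 0.08 without KO 2. Myl7 footprints were 522, 756 and 556 CPM in WT and 655, 874 and 768 CPM in KO. KO 2 was again the highest, and WT 2 lay above KO 1. Footprints were 0.33 higher on the log2 scale in KO (SE 0.15), which did not pass the test across all genes (edgeR quasi-likelihood test, adjusted p = 0.83).

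Myl4, the essential light chain that pairs with Myl7 on the myosin head (chr11:104576985-104587215, plus strand, 8 exons), had RNA levels of 408, 413 and 266 CPM in WT and 363, 707 and 637 CPM in KO. KO 2 and KO 3 stood above all WT libraries, whereas KO 1 lay below WT 1 and WT 2. Its footprint levels were 401, 591 and 391 CPM in WT and 489, 564 and 550 CPM in KO. There WT 2 was the highest library of all. The Myl4 difference was 0.65 (SE 0.27) on the log2 scale in RNA and 0.21 (SE 0.15) in footprints (edgeR, adjusted p for footprints = 0.86). The footprint value ran from 0.11 without WT 3 to 0.43 without WT 2.

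Nppa encodes the precursor of atrial natriuretic peptide (chr4:148000722-148002079, plus strand, 3 exons) and was the most abundant of the 6. Its RNA levels were 983, 1227 and 886 CPM in WT and 952, 1860 and 1922 CPM in KO. As for Myl4, KO 2 and KO 3 were above every WT library and KO 1 was not. Its footprints were 1468, 1964 and 1404 CPM in WT and 1463, 1753 and 1987 CPM in KO, with WT 2 next to KO 3 at the top. The log2 difference was 0.61 (SE 0.27) in RNA and 0.11 (SE 0.14) in footprints (edgeR, adjusted p for footprints = 0.94). The footprint value ran from 0.00 without KO 3 to 0.27 without WT 2.

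Sln encodes sarcolipin, the small membrane protein that inhibits the calcium pump of the sarcoplasmic reticulum. It had 58 to 162 RNA counts per library. Its RNA levels were 12.01, 7.51 and 8.68 CPM in WT and 11.3, 17.6 and 16.4 CPM in KO, and KO 1 lay below WT 1. Its footprints were 38.7, 45.2 and 26.2 CPM in WT and 68.6, 47.1 and 53.7 CPM in KO. Each KO footprint library was thus above each WT one, with KO 2 only slightly above WT 2. The log2 difference was 0.69 (SE 0.24) in RNA and 0.63 (SE 0.22) in footprints (edgeR, adjusted p for footprints = 0.83). KO 1, which had the lowest Sln RNA of the KO libraries, had the highest Sln footprint level.

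Bmp10 (chr6:87428994-87437677, plus strand, 2 exons) had the largest footprint difference of the group and almost no RNA counts. Its footprints numbered 277, 210 and 48 in the WT libraries and 504, 1309 and 665 in the KO libraries, or 56.7, 55.2 and 10.1 CPM against 67.8, 192 and 139 CPM. The lowest KO library lay just above the highest WT library, and WT 3 stood far below the other 5. The mean was 40.7 ± 26.5 CPM (SD, n = 3) in WT and 133 ± 62.1 CPM (SD, n = 3) in KO, a ratio of 3.26. The fitted log2 difference was 1.71 (SE 0.45; edgeR, unadjusted p = 0.0016) and did not pass after adjustment (adjusted p = 0.83). Without WT 3 it was 1.24. Adjusted p over the alternatives ran from 2.7e-18 to 1.00: the fit without a filter on low counts passed, with a log2 difference of 1.72 (SE 0.18), and none of the others did. In RNA, Bmp10 had 0, 2 and 1 counts in WT and 0, 3 and 4 in KO. The 95% Poisson intervals, which cover counting error only, ran from 0.619 to 8.77 for the 3 WT counts in all and from 2.81 to 14.4 for the 7 KO counts. Of the 6 RNA libraries only KO 3 exceeded 3 counts, so no RNA fold is given and Bmp10 was not in the RNA fit.

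Kcnj3 encodes GIRK1, a subunit of the potassium channel that acetylcholine opens to slow the heart (chr2:55435970-55598145, plus strand, 4 exons). It had 6, 11 and 6 RNA counts in WT and 9, 9 and 16 in KO, and the 95% Poisson intervals of the summed counts, 14.6 to 34.5 for WT and 23.5 to 47.5 for KO, overlapped. Its footprints were 53.0, 51.5 and 47.9 CPM in WT and 43.8, 70.4 and 54.5 CPM in KO. KO 1 was the lowest and KO 2 the highest of the 6. The footprint difference was 0.15 on the log2 scale (SE 0.19; edgeR, adjusted p = 0.94), and it was -0.05 without KO 2.

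**Figure D1:**
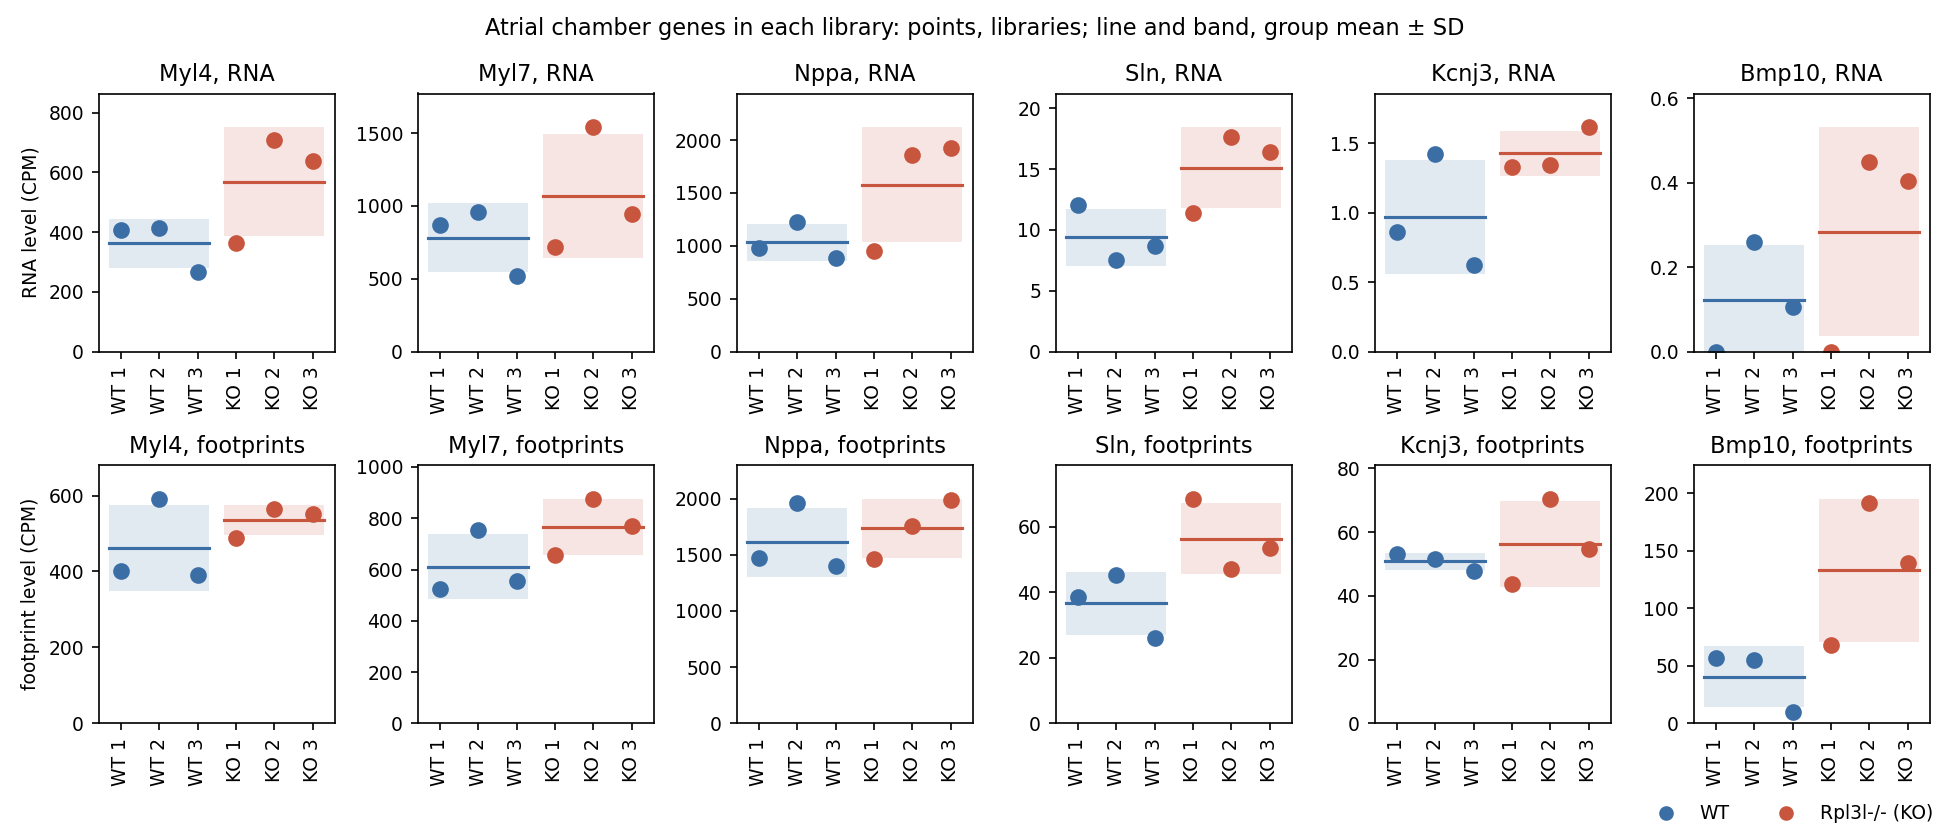
Level of each gene (CPM after TMM scaling, linear axes from 0) in each of the 6 RNA libraries (upper row) and 6 footprint libraries (lower row), with the group mean as a line and ± SD as a band. KO footprints lie above all WT footprints for Sln and Bmp10 and overlap for the other genes, and KO 1 lies among the WT libraries in RNA.

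The KO mean was higher than the WT mean for all 6 genes in footprints and for the 5 with enough counts in RNA, but no gene passed the test. In RNA, 0 of the 5 genes that passed the low-count filter were called in edgeR at an adjusted p below 0.05, in a comparison that called 0.0119% of 8379 genes (1 gene, Rpl3l). At an unadjusted p below 0.05 they were 3 (Myl4, Nppa and Sln), against 2.54% of all genes. In footprints, 0 of 6 were called, against 0.00897% of 11153 genes, and 3 (Bmp10, Sln and Myl7) had an unadjusted p below 0.05, against 5.97% of all genes. DESeq2 called 0 of the 5 and 0 of the 6 as well. The RNA contrast was known when the genes were chosen, and nothing is read from its counts. The footprint counts may not be free of this choice either, since the hearts may be the same. Bmp10 was too low in RNA to be selected on it, so its footprints may have entered the choice. The median log2 difference of the genes tested was 0.61 in RNA, beside -0.01 over all genes, and 0.27 in footprints, beside 0.00 over all genes. The groups did not overlap for 0 of the 5 genes in RNA, where 4.14% of all genes had every KO library above every WT library. In footprints they did not overlap for 2 of 6, Sln and Bmp10, where this held for 6.28% of all genes.

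**Figure D2:**
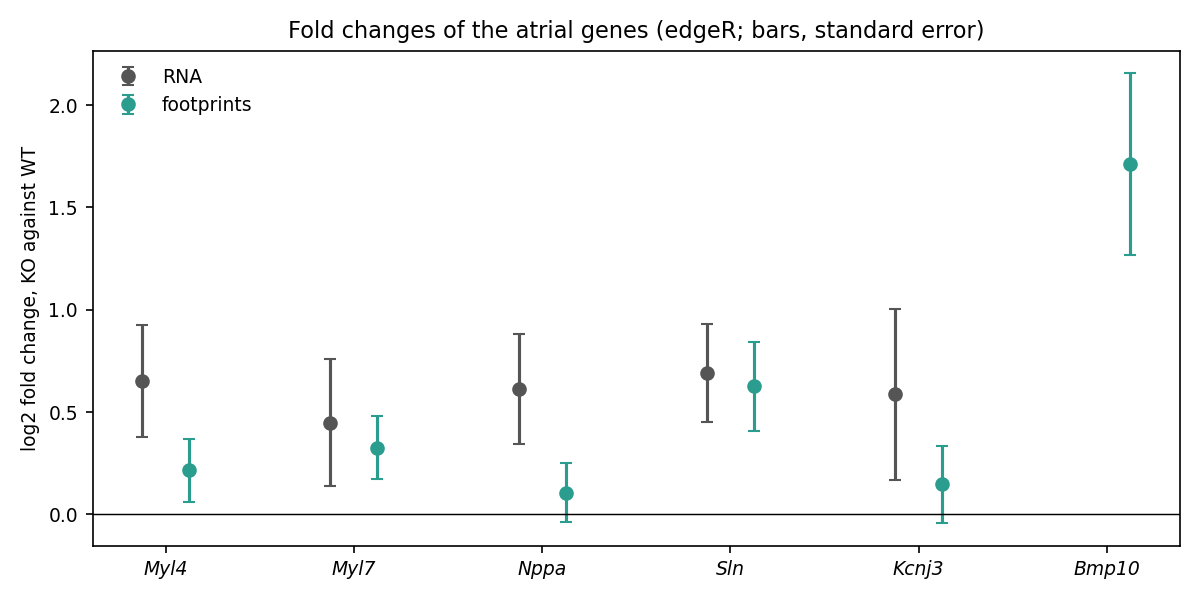
Log2 fold change of KO against WT for each gene, in RNA (grey) and in footprints (green), with standard errors from the edgeR fits. All values lie above 0, Bmp10 footprints are highest at 1.71, and Bmp10 has no RNA value because too few reads were counted.

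Footprints relative to RNA, the measure called translational efficiency, used the RNA contrast too and are given as a description. KO against WT it was -0.41 (SE 0.35) for Myl4, -0.10 (SE 0.39) for Myl7, -0.48 (SE 0.34) for Nppa, -0.04 (SE 0.35) for Sln and -0.43 (SE 0.43) for Kcnj3 on the log2 scale. All 5 were below 0, and the value was larger than its standard error only for Nppa and Myl4. The edgeR interaction test called 0% of 8044 genes, none of them among the 5, and 3.73% of genes had an unadjusted p below 0.05, again with 0 of the 5. DESeq2 called 1 gene in all, Rpl3l.

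Whether a heart that was high in RNA was also high in footprints was examined over 6 pairs of libraries with the same genotype and number. The labels do not say that the same number means the same heart. Over 8044 genes, deviations from the group means correlated weakly within the 6 pairs, at 0.08 to 0.15. Of the 6 RNA libraries KO 2 was the highest for 3 and KO 3 for 2 of the 5 genes with enough counts, and WT 3 was the lowest for 4. In footprints KO 2 was the highest for 3 genes and WT 3 the lowest for 4. KO 1, at the level of the WT libraries in RNA, was the lowest KO footprint library for all genes but Sln.

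Nppa RNA and footprints were ordered most alike, with Pearson r = 0.81 (exact permutation over 720 pairings, p = 0.074) and Spearman rho = 0.94 (exact permutation p = 0.017). Without the 2 hearts farthest from the median RNA level, KO 2 and KO 3, r was 0.98 over 4 pairs. That value rests on WT 2, at 1227 CPM of RNA and 1964 CPM of footprints. WT 1, WT 3 and KO 1 lay close together, at 886 to 983 CPM and 1404 to 1468 CPM. For Myl7 r was 0.76 (exact permutation p = 0.064) and rho 0.77 (exact permutation p = 0.10), and without WT 3 and KO 2 r was 0.38. For Myl4 r was 0.70 (exact permutation p = 0.13) and rho 0.77 (exact permutation p = 0.10), and r was 0.56 without KO 2 and KO 3. The Myl7 and Myl4 relations thus rest in part on 2 hearts each. WT 2 was high in footprints for Myl4 and Nppa at a middling RNA level. For Sln r was 0.40 (exact permutation p = 0.45) and rho 0.37 (exact permutation p = 0.50), and r was 0.63 without WT 2 and KO 2 but -0.42 with levels centred within genotype. Among the 3 KO hearts Sln ran the other way, with KO 1 lowest in RNA and highest in footprints. Kcnj3, with 6 to 16 RNA counts per library, had r = 0.28 (exact permutation p = 0.58) and rho = 0.49 (exact permutation p = 0.36), and 0.02 without WT 1 and WT 3. Bmp10 had too few RNA counts for such a value.

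No relation passed adjustment over all 8044 genes (lowest adjusted p 0.87 for r and 0.83 for rho among the 5), nor did that of any other gene. With 720 pairings the smallest exact permutation p is about 0.0028, so hardly any gene could pass adjustment over 8044 genes. The lack of a pass is therefore not read as a lack of relation. Over all these genes the median r was 0.07, with quartiles at -0.30 and 0.42. Beside them, Nppa stood at the 96.0th percentile, Myl7 at the 94.4th, Myl4 at the 91.6th, Sln at the 74.0th and Kcnj3 at the 64.7th. The 8044 genes were not matched to the 5 for number of counts, and the 5 were chosen with RNA results known. These percentiles are therefore given as a description. Within the 3 hearts of a genotype a correlation is not given, for want of samples.

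**Figure D3:**
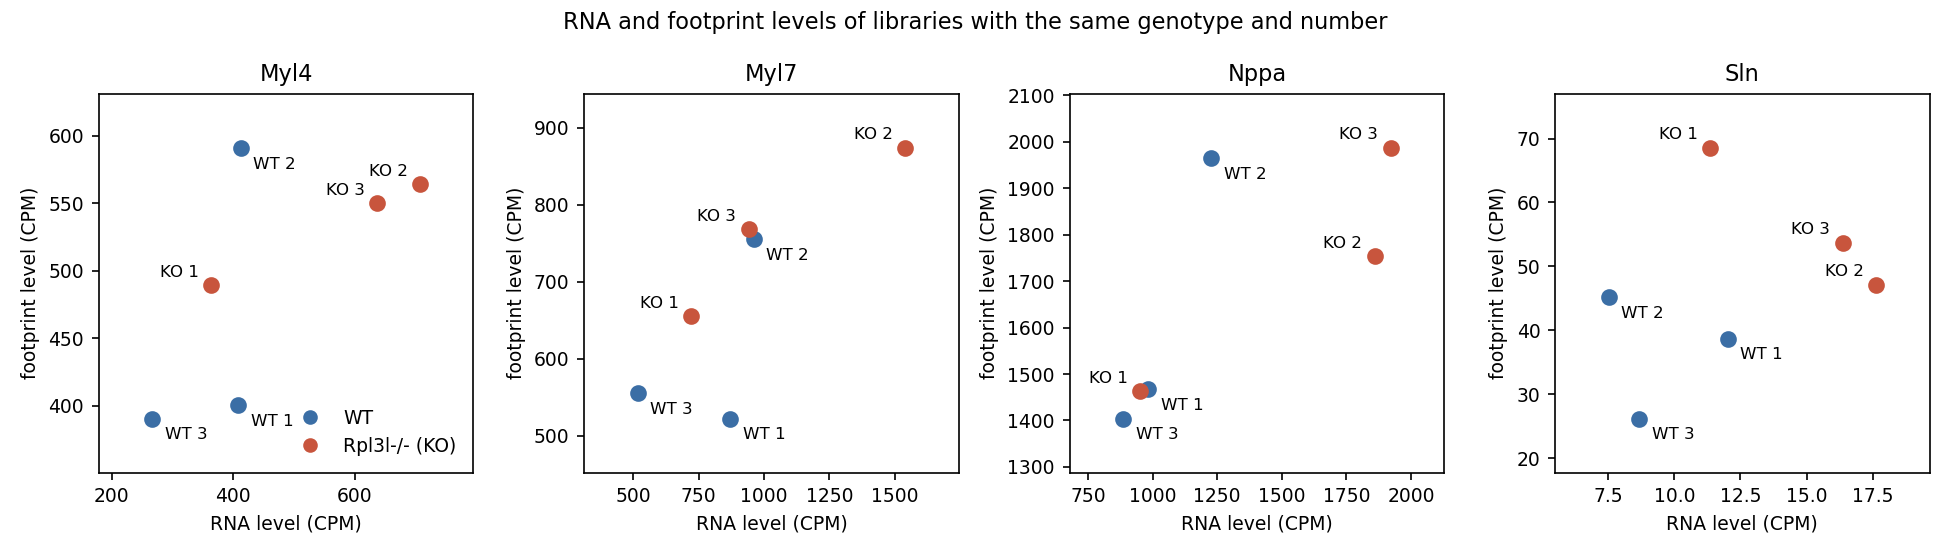
RNA level against footprint level (both in CPM, axes not from 0) for 4 genes, each point a pair of libraries with the same genotype and number. WT 3 is low and KO 2 high on both axes for Myl4 and Myl7, WT 3 is low and KO 3 high for Nppa, and Sln has KO 1 at the top with middling RNA.

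Because the RNA libraries split across genotypes, KO was also set against WT on each side of the split. KO 2 was above WT 1 and WT 2, and KO 1 and KO 3 were above WT 3, for Myl4, Myl7, Nppa and Sln, 4 of the 5 genes. This order held for 11.6% of all genes in RNA. The comparison was added after the values were seen. KO 2 alone stood for KO on one side, and WT 3 alone for WT on the other. WT 3 was already the lowest RNA library for Myl4, Myl7 and Nppa. Kcnj3 did not follow it. A fit with the side of the split as a term, added after the values were seen, gave log2 differences of 0.85 (SE 0.16) for Myl4, 0.72 (SE 0.14) for Myl7, 0.72 (SE 0.18) for Nppa and 0.78 (SE 0.19) for Sln. Both the order and these differences are a description and no support, since the RNA contrast was known when the genes were chosen. What the split stands for was not tested.

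The share of the atrial form in each pair of chamber proteins does not depend on the scaling of the library. Of the 2 regulatory light chains, Myl7 took 4.31%, 5.88% and 3.72% of RNA counts in WT and 5.05%, 9.36% and 6.32% in KO, the rest being Myl2. In footprints Myl7 took 3.95%, 5.72% and 3.63% in WT and 5.72%, 7.22% and 6.82% in KO. All KO footprint libraries were at or above all WT ones, but the Wilson 95% intervals of WT 2 (5.52% to 5.93%) and KO 1 (5.57% to 5.88%) overlap. The mean share of footprints was 4.43% ± 1.13 (SD, n = 3) in WT and 6.59% ± 0.774 (SD, n = 3) in KO (exact two-sided permutation p = 0.10, the smallest that 3 against 3 can give). Myl2, the other side of the pair, had footprint levels of 12689, 12456 and 14751 CPM in WT and 10790, 11239 and 10502 CPM in KO. Each KO library was below each WT library, as for 5.77% of all genes, with a log2 difference of -0.29 (SE 0.09; edgeR, adjusted p = 0.83).

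Of the 2 essential light chains, Myl4 took 5.26%, 5.98% and 4.36% of RNA counts in WT and 6.03%, 10.0% and 9.38% in KO, beside Myl3. The lowest KO share, that of KO 1, was within the interval of WT 2 (5.78% to 6.18%). In footprints the Myl4 share was 3.99% ± 1.00 (SD, n = 3) in WT and 4.79% ± 0.608 (SD, n = 3) in KO, with overlap (exact permutation p = 0.30). Short footprints can be hard to assign between such similar messages. Of the 555 windows of 28 bases in the Myl4 coding sequence, 2 were identical to a window of Myl3 and 48 (8.65%) were within 2 mismatches of one. For Myl7 against Myl2, 0 of 501 were identical and 3 were within 2 mismatches. The closest pair of windows for each is shown, with capitals at mismatches, bases 385 to 412 of the Myl4 coding sequence and 95 to 122 of that of Myl7.
Myl4: gaggacttcgtggaggggctgcgggtct
Myl3: gaggacttcgtggaggggctgcgggtct
Myl7: cccagatTcaggaAttcaaggaagcctt
Myl2: cccagatCcaggaGttcaaggaagcctt
How the deposited counts treat reads that match 2 genes is not given in the sources used here.

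Sln took 9.45%, 7.68% and 5.67% of the RNA counts of sarcolipin and phospholamban (Pln) together in WT and 7.91%, 15.1% and 12.8% in KO. In footprints its share was 0.905% ± 0.282 (SD, n = 3) in WT and 1.39% ± 0.362 (SD, n = 3) in KO (exact permutation p = 0.20), and KO 2 lay below WT 2. Nppa took 84.4%, 92.3% and 86.8% of the RNA counts of both natriuretic peptide genes in WT and 92.2%, 95.8% and 94.6% in KO. Its footprint share was 89.1% ± 3.61 (SD, n = 3) in WT and 92.6% ± 0.375 (SD, n = 3) in KO (exact permutation p = 0.40). Nppb, the other peptide gene, was lower in KO, with a log2 difference of -0.62 (SE 0.23) in RNA and -0.46 (SE 0.18) in footprints (edgeR, adjusted p for footprints = 0.83), and it enters the Nppa share.

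**Figure D4:**
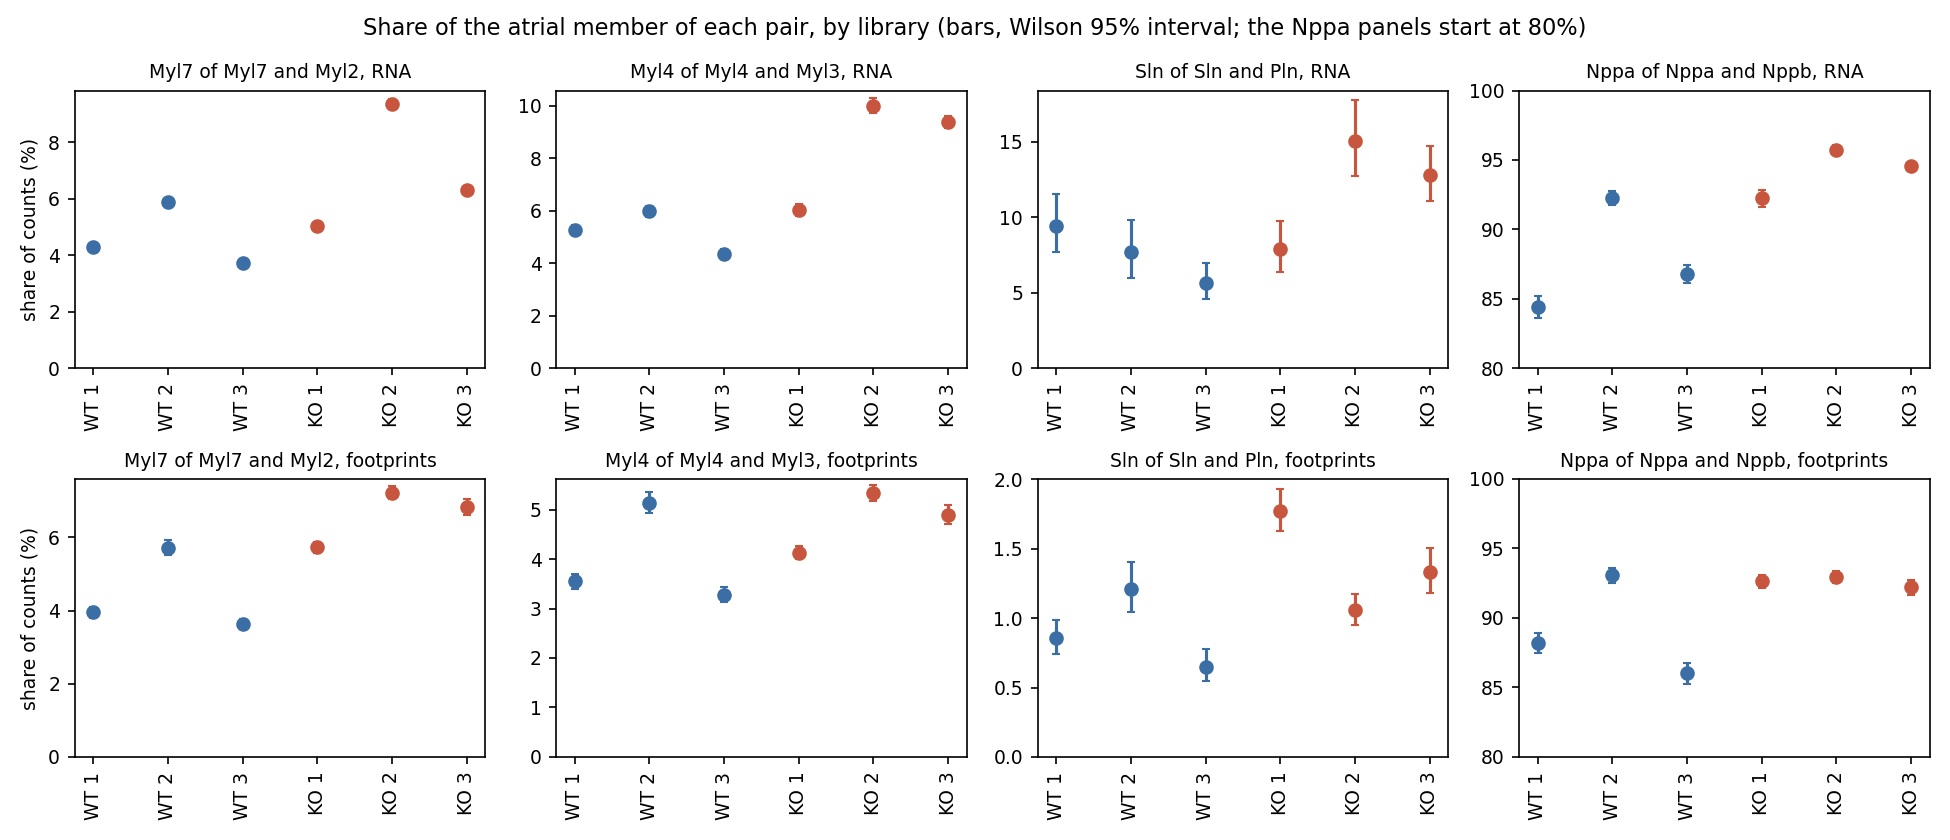
Share (%) of the atrial member in the summed counts of each pair, by library, in RNA (upper row) and footprints (lower row), with Wilson 95% intervals. Blue points are WT and red points KO. The Nppa axes start at 80%. Myl7 footprint shares are 3.63% to 5.72% in WT and 5.72% to 7.22% in KO.

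Between genes, footprints were compared per kilobase of coding sequence. In WT, Nppa had 3512 ± 668 CPM per kb (SD, n = 3), Myl7 1158 ± 239, Myl4 792 ± 194 and Sln 382 ± 101. Kcnj3, at 33.7 ± 1.75, and Bmp10, at 32.1 ± 20.9, did not differ beyond their spread. On the same scale the ventricular counterparts were far higher, with Myl2 at 26544, Myl3 at 18061 and Pln at 25519 CPM per kb in WT. Nppb, at 519 CPM per kb, was below Nppa.

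The genes differed widely in how many footprints were counted for each RNA read. In WT the log2 ratio of footprint to RNA CPM, with 0.5 added to each, was -0.33 ± 0.42 (SD, n = 3) for Myl7, 0.35 ± 0.32 for Myl4, 0.64 ± 0.05 for Nppa, 1.90 ± 0.53 for Sln and 5.16 ± 0.36 for Kcnj3, whose value rests on 6 to 11 RNA counts per library. Bmp10 has no ratio, since its WT RNA counts of 0, 2 and 1 lie below the detection limit. The order of these 5 was that of their 3′ UTR lengths in the annotation: 43 bases in Myl7, 147 in Myl4, 293 in Nppa, 992 in Sln and 2748 in Kcnj3. The 3′ UTR of Bmp10, at 3185 bases, is the longest of the 6. The same held for genes at large. The median ratio over all genes that averaged 50 footprints or more was 0.05 for 3′ UTRs under 100 bases, 0.83 for 100 up to 300, 2.21 for 300 up to 1000, 3.26 for 1000 up to 2000 and 3.56 both for 2000 up to 3000 and for longer ones. Myl7, Myl4, Nppa and Sln lay within the quartiles of their length class, whereas Kcnj3 lay above those of its class. Few RNA counts despite many footprints was therefore not particular to Bmp10. Of 7890 such genes, 295 (3.74%) had at most 4 RNA counts in every library, although only 3 of these had more footprints than Bmp10, whose mean was 502. The region of the transcript counted for RNA is not given in the sources used here, and its part in these ratios was not tested.

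**Figure D5:**
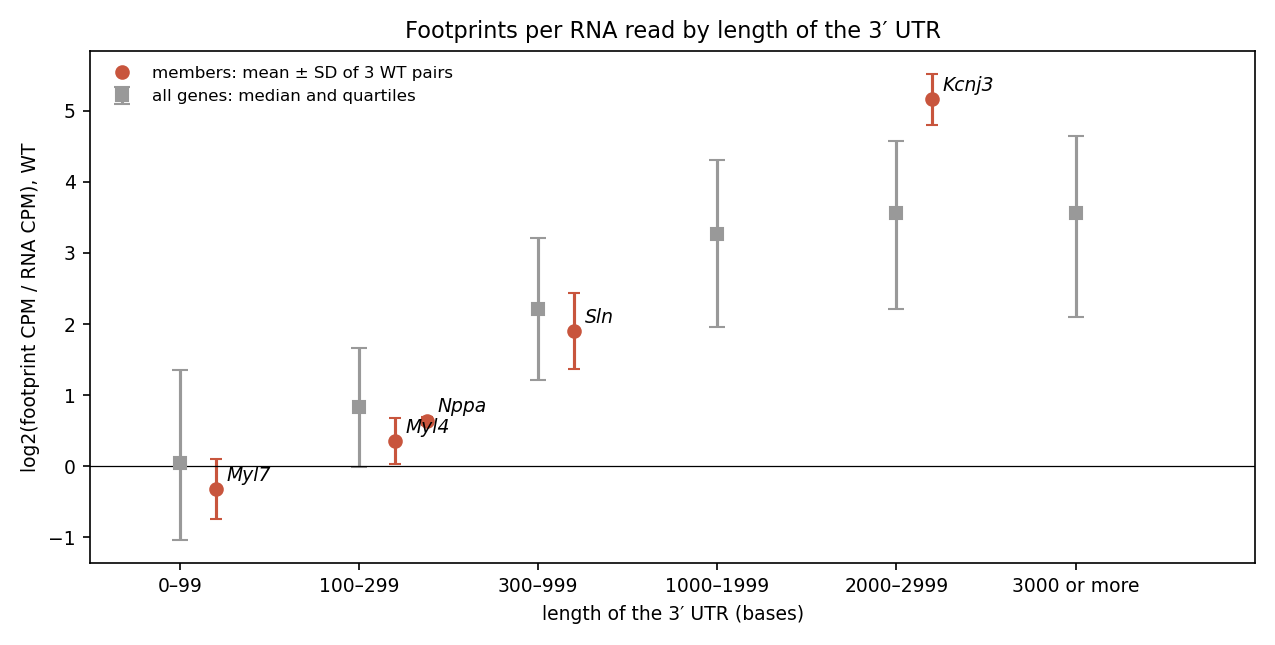
Log2 ratio of footprint to RNA level in WT against length class of the 3′ UTR: grey squares are the median and quartiles over all genes with enough footprints, red points 5 of the genes with ± SD over 3 pairs (Bmp10 is left out for want of RNA counts). The grey medians climb from 0.05 to 3.56, and Kcnj3 (5.16) lies above the quartiles of its class.

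Other genes known for stronger expression in atria, from a list of 15 chosen with earlier results of these data known, were more often higher than lower in KO. A list chosen in this way is a description and no independent support. In RNA 12 were tested, 9 were higher and 3 lower in KO, and 0 were called by edgeR. There 3 had an unadjusted p below 0.05, against 2.54% of all genes, and the median log2 difference was 0.31, beside -0.01 over all genes. In footprints 13 were tested, 10 were higher and 3 lower, and 0 were called. There 4 had an unadjusted p below 0.05, against 5.97% of all genes, and the median was 0.31, beside 0.00 over all genes. Mybphl, a myosin-binding protein of atrial and conduction cells, had RNA levels of 27.2, 35.2 and 24.6 CPM in WT and 28.1, 52.9 and 46.8 CPM in KO, with KO 2 and KO 3 on top, as for Nppa and Myl4. Mybphl footprints overlapped between the groups, with a log2 difference of 0.16 (SE 0.22; edgeR, adjusted p = 0.94). Hamp, the hormone hepcidin, had RNA levels of 2.00, 1.55 and 0.836 CPM in WT and 1.62, 4.78 and 3.84 CPM in KO, again with KO 2 and KO 3 on top. In footprints Pam, the enzyme that amidates peptides and lines atrial secretory granules, was at 457, 425 and 452 CPM in WT and 522, 657 and 564 CPM in KO, without overlap (log2 difference 0.39, SE 0.12; edgeR, adjusted p = 0.83). Dkk3, a secreted protein, was at 48.5, 31.8 and 32.3 CPM in WT and 45.7, 68.9 and 68.8 CPM in KO. Other listed genes lay the opposite way: the log2 difference was -0.43 (SE 0.27) for the muscarinic receptor Chrm2 in RNA, -0.36 (SE 0.25) for the nuclear receptor Nr2f2 in footprints and -0.16 (SE 0.21) for the potassium channel Kcnk3 in footprints.

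The atrial cell markers outside the 6 genes (Mybphl, Sbk2, Nr2f2 and Kcna5) summed to 32.9, 40.5 and 29.9 CPM of RNA in WT and 34.8, 60.7 and 53.6 CPM in KO. Most of this sum was Mybphl. The sum was highest in KO 2 and KO 3, the libraries with the most Myl4, Nppa and Sln RNA, as were Mybphl and Sbk2, whereas Kcna5 RNA was highest in KO 1 (4.13 CPM) and Nr2f2 RNA in KO 2 (2.39 CPM) and WT 1 (2.15 CPM). All 4 passed the filter in both assays, 3 were higher in KO, and none was at 0 in all libraries. In footprints they summed to 91.1, 142 and 102 CPM in WT and 102, 144 and 127 CPM in KO, highest in WT 2 and KO 2. Their part in the differences of the 6 genes was not tested. Adipocyte markers summed to 278 CPM of RNA in WT 2 and 221 in KO 2, against 50.1 to 87.4 in the other 4 libraries. Their footprints summed to 570 CPM in WT 2 and 415 in KO 2, against 108 to 226 in the others. The part of adipocyte markers was not tested either. Conduction system markers (Hcn4, Tbx3, Cntn2, Shox2 and Gja5) summed to 0.598 to 2.00 CPM in RNA and 46.0 to 74.1 CPM in footprints, where WT 1 was the highest. Endocardial markers (Npr3, Nfatc1 and Plvap) summed to 125 to 136 CPM of footprints in WT and 106 to 131 CPM in KO.

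In the pathways around these genes, edgeR called no gene in either assay. Over all genes, 2.54% in RNA and 5.97% in footprints had an unadjusted p below 0.05 in edgeR. Of 6 genes of calcium handling (Atp2a2, Pln, Mrln, Strit1, Ryr2 and Casq2), 5 were tested in each assay. At an unadjusted p below 0.05 there were 0 in RNA and 1 in footprints, Casq2 (log2 difference 0.29, SE 0.13). In footprints all 5 were higher in KO, with a median of 0.21, and in RNA 3 were higher and 2 lower. Pln, the ventricular counterpart of Sln, differed by -0.03 (SE 0.21) in RNA and 0.00 (SE 0.11) in footprints on the log2 scale, and the pump Atp2a2 by 0.03 (SE 0.31) and 0.21 (SE 0.12). Of 14 genes of BMP and endoglin signalling, 7 were tested in RNA and 11 in footprints, and 0 had an unadjusted p below 0.05 in either. Among them the receptors that Bmp10 binds, Acvrl1 and its partner Eng, differed in footprints by -0.25 (SE 0.21) and -0.04 (SE 0.12), and the BMP target Id1 by -0.09 (SE 0.20). Of 5 genes of the acetylcholine-gated potassium current, 4 were tested in RNA and 5 in footprints, again with 0 below an unadjusted p of 0.05. Kcnj5, which encodes the partner subunit of Kcnj3, differed by 0.05 (SE 0.34) in footprints, and the muscarinic receptor Chrm2 by -0.16 (SE 0.18). Of 6 other genes of the natriuretic peptide system, 5 were tested in RNA and 6 in footprints, and 1 and 2 had an unadjusted p below 0.05. In footprints 1 was higher and 5 were lower in KO, with a median of -0.15, and in RNA 3 were higher and 2 lower. The receptor gene Npr3 differed by -0.41 (SE 0.19; edgeR, adjusted p = 0.83) in footprints. The processing enzyme Corin differed by -0.04 (SE 0.20) in RNA and 0.01 (SE 0.13) in footprints.

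A list of fetal and stress genes that leaves out Nppa and the other members was mostly lower in KO. Of 6 (Nppb, Ankrd1, Acta1, Myh7, Xirp2 and Tnni1), 5 were tested in each assay and 0 were called by edgeR. In each assay 2 had an unadjusted p below 0.05, against 2.54% of all genes in RNA and 5.97% in footprints. In RNA 0 were higher and 5 lower in KO, with a median log2 difference of -0.49. In footprints 1 was higher and 4 lower, with a median of -0.39. Tnni1, not tested, had 0 footprints in each WT library and 7, 7 and 4 in KO. Nppa itself had higher means in KO. Ankrd1, a sarcomeric stress protein, differed by -0.80 (SE 0.23) in RNA and -0.52 (SE 0.19) in footprints (edgeR, adjusted p for footprints = 0.83). Of 7 ventricular genes, with Myl2 and Myl3 among them, the median was -0.18 in RNA over 5 tested and -0.10 in footprints over 7 tested, with 0 called and 0 and 2 below an unadjusted p of 0.05.

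The genes whose levels followed the mean profile of the group most closely were found over 6 libraries of each assay, leaving out genes that averaged under 50 counts. In RNA, out of 4300, they were Cnpy2 (r = 0.99), C1qtnf9 (0.97), Ubr4 (0.97), Stard9 (0.97) and Stard10 (0.96). C1qtnf9, a secreted heart and fat protein, ran at 17.4, 18.1 and 14.6 CPM in WT and 15.8, 25.3 and 22.0 CPM in KO. Stard10, a lipid transfer protein, ran at 145, 144 and 96.3 CPM in WT and 130, 223 and 170 CPM in KO. In footprints, out of 7945, they were Ralgapa2 (r = 0.96), Ptprk (0.96), Hspg2 (0.96), Eif3m (0.96) and Decr2 (0.96). No gene was in both groups of 5. These likenesses were picked as the highest among all these genes over only 6 libraries and are a description.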

How the data were processed

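The authors deposited counts, not normalised, for each transcript name and library, from footprint (RPF) and polyadenylated RNA libraries of the left ventricle. Trimming and alignment tools, cutadapt 1.18 and Bowtie2 2.4.2, are named in the submitters' processing notes. The genome build, the region counted, strand use and the treatment of reads with several matches are not given in the sources used here. Names were matched to GENCODE M21 (GRCm38), 21425 of 21669, for coordinates and lengths.

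Each assay was fitted on its 6 libraries with a genotype term, and translational efficiency on all 12 as the interaction of assay and genotype. After filterByExpr (minimum count 10) and TMM scaling, genes were tested in edgeR 4.0.16 (glmQLFit, glmQLFTest) with Benjamini-Hochberg adjustment over all genes and a threshold of 0.05. DESeq2 1.42.0, limma 3.58.1, R 4.3.3, Python 3.11.15 and scipy 1.17.1 were also used. P-values measure the spread between 3 libraries per group. Relations of RNA with footprints used log2(CPM + 0.5). Shares have Wilson 95% intervals. These and Poisson intervals cover counting error only, since amplified copies cannot be recognised in counts.

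The members and gene lists were chosen with earlier results of these data known. All 6 members are described. The genes most like them were the 5 with the highest r to their mean centred log2 level, per assay. Of the listed genes 2 are not reported here and were left out of every count and sum. Further genes named from the lists were picked knowing their values. The fits and the relation were tested on simulated data. Alternatives covered scaling, test, filters, pseudocount, a replicate block, the sides of the first RNA component and each replicate left out.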

Additional observations from a re-analysis of the deposited data

How the results depend on the processing

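Of 195 recomputed fold changes of the 6 genes, 185 kept their direction and side of the threshold, 3 newly passed it and 7 changed sign. Of the 3, Bmp10 footprints passed without a filter. The others are RNA values of Myl4 and Myl7 with the side of the first RNA component as a term, an alternative added after the data were seen. The RNA contrast was known when the genes were chosen, and nothing is read from these values. Sign changes concerned values near 0: Kcnj3 footprints, which ran from -0.050 (without KO 2) to 0.30 with 1 replicate left out, Myl7 efficiency, which ran from -0.28 to 0.17 (above 0 without WT 3 or KO 2), and Sln efficiency, which ran from -0.37 to 0.26 (above 0 without WT 2, KO 2 or KO 3) and was 0.0059 without a filter. The number of genes called in RNA rose from 1 to 4 without a filter and to 6 with the side of the component. In footprints it rose from 1 to 5 with DESeq2 and to 60 without a filter, and ranged from 1 to 2 with 1 replicate left out (2 without WT 2 or WT 3). In efficiency it rose from 0 to 1 with DESeq2 and to 3 without a filter. The cause of these changes was not tested.

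With the replicate number as a block, 4 genes were called in footprints, none of the 6 among them, 1 in RNA and 0 in efficiency. Deviations of WT and KO libraries with the same number correlated at -0.21, 0.36 and 0.41 in RNA and at 0.04, 0.01 and 0.00 in footprints. Only numbers 2 and 3 in RNA deviated together, not every pair, and the numbers were not taken to pair the samples.

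Of 55 recomputed relations 1 changed sign: Sln centred within genotype was -0.42. With 1 heart left out, r ranged from 0.70 to 0.96 for Nppa, 0.57 to 0.98 for Myl7, 0.48 to 0.86 for Myl4, 0.10 to 0.57 for Sln and 0.06 to 0.48 for Kcnj3. Of 64 recomputed share differences, only that of Sln in footprints per base of transcript moved beyond its spread, from 0.483 to 0.840 percentage points. Depth limits Bmp10 and Kcnj3 in RNA, where counts per library were 0 to 4 and 6 to 16.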
